A study of Mus musculus with 12 samples.

Results

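Immediate early genes are the first genes that cells transcribe when a receptor is engaged, and ERK feedback genes encode the proteins that switch the same signal off again. The 41 genes described here were taken by name from the 43271 rows of the count table. The rule itself uses no measured value, but the list was chosen with earlier results of these data known. They comprise 9 AP-1 genes, 4 EGR and NR4A genes, 4 KLF genes, 6 further immediate early genes (*Ier2*, *Ier3*, *Ier5*, *Myc*, *Zfp36* and *Btg2*), 9 dual-specificity phosphatases, 6 Sprouty and SPRED genes, and 3 genes that are widely read as ERK output (*Etv4*, *Etv5* and *Phlda1*). Of the 41, 40 carried enough reads to be tested, and *Atf3*, with 0 to 2 reads in each library, did not.

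Poly(A) RNA was sequenced from MC38CEA cells, a mouse colon adenocarcinoma line made to express human carcinoembryonic antigen, in 4 groups of 3 libraries. All cells carried a lentiviral vector and had been selected with puromycin as pools, not as clones. The vector was either a control vector or one that encoded A17.2 (SL2 in the labels), an shRNA that targets *Adam17*. That is the gene of a membrane protease that sheds growth factors and cytokine receptors. Each line was left unstimulated or was treated for 6 h with human recombinant IL1β and mouse recombinant IFNγ, each at 10 ng/ml. The control vector is SHC016 in the deposited notes, which describe a cytotoxic construct with its cassette eliminated, while the methods of the study name SHC002, a non-targeting shRNA. Whether the control cells expressed an shRNA is thus not settled, and values with A17.2 may compare an shRNA with none. The libraries are numbered 1 to 3 in each group as biological replicates. Nothing says that they came from separate cultures, and p-values here reflect no more than the scatter among the 12 libraries, which may be technical.

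Depth ranged from 16592831 to 35861103 counts per library. *Adam17* stood at 76.1, 68.4 and 76.4 CPM in the resting control libraries and at 30.8, 29.9 and 27.7 CPM in the resting A17.2 libraries (log2 fold change -1.32 ± 0.15 (SE), edgeR adjusted p = 0.000643), and its relative *Adam10* at 22.9, 25.8 and 33.3 against 22.1, 23.5 and 31.9 CPM (-0.08 ± 0.19, adjusted p = 0.901). *Nos2*, the inducible nitric oxide synthase, went from a mean of 0.138 to 909.5 CPM with cytokines in control cells and from 0.0702 to 249.9 CPM in A17.2 cells. The study reported that A17.2 also lowered ADAM10, by Western blot and by RT-qPCR of *Adam10* on cytokine-treated cells. The unstimulated libraries here did not show a fall in *Adam10*. The study proposes off-target effects as the presumed reason for the weaker *Nos2* induction. In this line it found no lower *Nos2* after CRISPR/Cas9 knockdown of *Adam17* or *Adam10*. An ADAM10 inhibitor did not lower *Nos2* either. With the shRNAs A10.2 and A10.3, ADAM10 resistant to them did not restore it. Within the counts used here, loss of *Adam17*, other effects of the shRNA and differences between the transduced pools cannot be told apart in the values with A17.2. Of 9 epithelial markers, 1 passed the filter on low counts, and their summed level was 0.520 to 1.27 CPM per library, whereas all 6 genes of the fibroblast list passed and summed to 758 to 867.9 CPM in unstimulated control, 752.8 to 859.9 in control with cytokines, 513.8 to 1048 in unstimulated A17.2 and 754.4 to 1183 in A17.2 cells with cytokines. The markers of epithelium were thus at or near 0 in cells labelled as a colon carcinoma line, with 1 to 3 of the 9 at 0 in every library of a group in all groups but the unstimulated control one. The leukocyte list, of which 3 of 6 genes were tested, summed to 31.7 to 49.8 CPM in unstimulated control, 23.97 to 31.99 in control with cytokines, 21.4 to 25.2 in unstimulated A17.2 and 17.3 to 22.03 in A17.2 cells with cytokines, and the part of either list in the differences between the lines was not tested. Of 3 endothelial markers 0 were tested. The genes of the fibroblast list did not move together. *Col1a2*, a collagen gene, was at 441, 315 and 220.4 CPM in unstimulated control and 6.77, 87.2 and 84.2 CPM in unstimulated A17.2 cells, and *Col1a1*, another, at 1.61, 1.37 and 0.937 and 1.97, 14.1 and 20.2 CPM. With cytokines the A17.2 libraries read 5.51, 57.2 and 67.3 CPM for *Col1a2*, 3.68, 21.2 and 23.7 CPM for *Col1a1* and 54.7, 16.6 and 12.2 CPM for the proteoglycan gene *Dcn*. The A17.2 libraries numbered 1 thus stood apart, low for both collagen genes and, with cytokines, high for *Dcn*. The library of control cells with cytokines numbered 1 is noted as having a corrupted raw file, and only its counts were used. Libraries of 1 number shared their deviations across the groups, most clearly those numbered 1 and least those numbered 2 between the lines. Each test was therefore also run with the replicate number as a block. Values without the libraries numbered 1 are given where they change a call made without the block. They are also given where they move a called value by over 1.5 times.

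Growth factor receptors and inflammatory receptors activate the kinases ERK, JNK and p38, which phosphorylate transcription factors already present in the cell. These switch on *Fos*, *Jun*, *Egr1* and their relatives within minutes, and the new proteins, among them the dimers known as AP-1, drive later genes. Sprouty and SPRED proteins then block RAS and RAF, and the dual-specificity phosphatases remove phosphate from ERK, JNK and p38. At 6 h most transcripts of this kind are past their first peak in cells treated with a single stimulus.

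The sequences just before the transcription starts are shown for the members that responded to the cytokines in either line and that have a RefSeq promoter window. They are the 250 bases upstream of the RefSeq start in GRCm38.p6, each 5′ to 3′ on the strand of the gene. Capitals mark matches, on either strand, to the EGR site GCGNGGGCG, the cyclic AMP response element TGACGTCA, the STAT element TTCNNNGAA or the CArG box, which binds serum response factor.
*Zfp36* (chr7:28379229-28379478, minus strand): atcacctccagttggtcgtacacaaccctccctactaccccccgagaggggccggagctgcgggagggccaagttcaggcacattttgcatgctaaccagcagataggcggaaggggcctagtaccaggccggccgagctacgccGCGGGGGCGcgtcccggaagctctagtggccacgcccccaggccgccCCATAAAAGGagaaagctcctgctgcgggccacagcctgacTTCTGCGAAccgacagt
*Junb* (chr8:84978749-84978998, minus strand): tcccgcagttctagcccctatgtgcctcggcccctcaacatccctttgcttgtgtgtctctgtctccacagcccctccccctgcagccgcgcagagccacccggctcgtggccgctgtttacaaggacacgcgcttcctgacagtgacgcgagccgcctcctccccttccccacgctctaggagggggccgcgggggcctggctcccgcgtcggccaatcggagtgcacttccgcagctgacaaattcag
*Maff* (chr15:79346371-79346620, plus strand): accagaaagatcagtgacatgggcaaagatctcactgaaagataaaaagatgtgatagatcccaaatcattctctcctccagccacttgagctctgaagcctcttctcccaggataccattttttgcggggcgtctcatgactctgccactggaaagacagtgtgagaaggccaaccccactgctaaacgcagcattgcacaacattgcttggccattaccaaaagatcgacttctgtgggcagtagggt
*Dusp1* (chr17:26508473-26508722, minus strand): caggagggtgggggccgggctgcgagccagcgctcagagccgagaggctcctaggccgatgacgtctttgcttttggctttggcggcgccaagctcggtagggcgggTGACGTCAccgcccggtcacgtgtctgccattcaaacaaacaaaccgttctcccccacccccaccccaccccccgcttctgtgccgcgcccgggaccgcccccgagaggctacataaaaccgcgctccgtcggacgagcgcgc
*Dusp2* (chr2:127335909-127336158, plus strand): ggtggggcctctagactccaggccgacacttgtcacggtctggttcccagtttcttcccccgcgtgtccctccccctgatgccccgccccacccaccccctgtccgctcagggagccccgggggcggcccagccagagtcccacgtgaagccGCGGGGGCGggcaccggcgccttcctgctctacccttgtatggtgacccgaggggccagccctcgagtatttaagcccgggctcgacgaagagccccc
*Zfp36* held an EGR site, a CArG box and a STAT element, *Dusp1* a cyclic AMP response element and *Dusp2* an EGR site, while *Junb* and *Maff* held none of these letters. Windows of 300 bases, 250 before and 50 after the start, were at hand for 31 of the 41 members. An EGR site was found in 9 of the 31 (29%) and in 5.55% of all 27025 windows, a cyclic AMP response element in 3 (*Btg2*, *Dusp1* and *Dusp8*; 9.68% against 1.88%) and a CArG box in 2 (*Zfp36* and *Dusp5*; 6.45% against 1.57%). The AP-1 site TGANTCA was in none of the 31 and in 7.93% of all windows, an NF-κB site was in 1 (*Dusp5*, where it overlaps the CArG box; 3.23% against 1.62%), and the STAT element in 2 (6.45% against 8.47%). The Sp1 box GGGCGG, which can overlap the EGR site, was in 26 (83.9% against 35.9%), and the TATA box TATAAA in 2 (6.45% against 14.2%). These shares describe the letters in the windows, not binding.

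**Figure D1:**
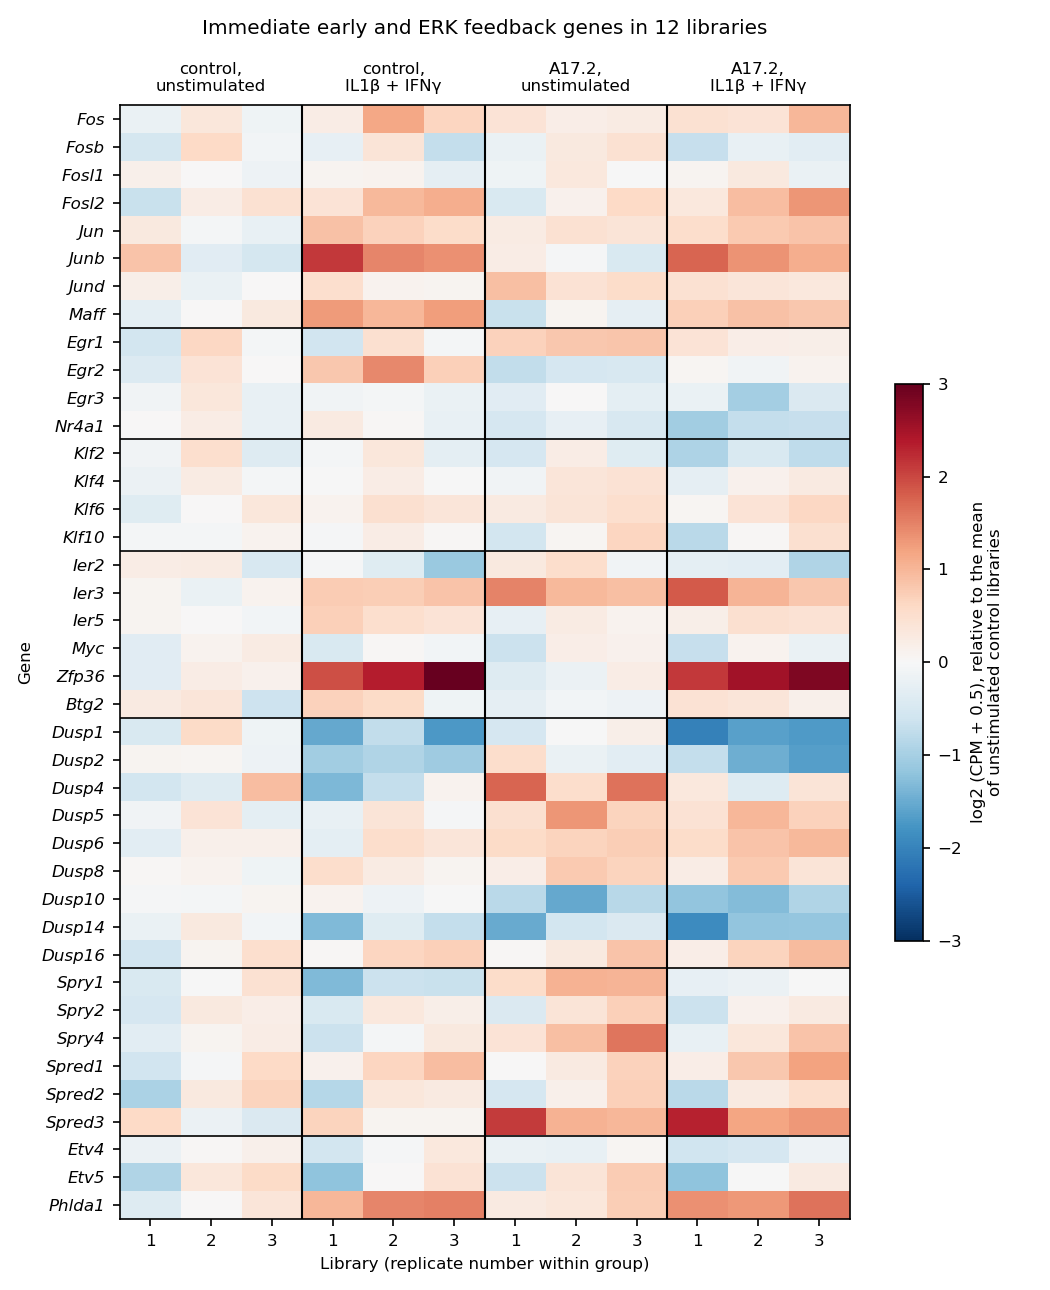
Level of the 40 tested members in each of the 12 libraries, as log2 (CPM + 0.5) relative to the mean of the 3 unstimulated control libraries. Rows are genes grouped by class and columns are libraries by group and replicate number. *Zfp36*, *Junb*, *Maff* and *Phlda1* are above 0 in all 6 cytokine libraries and *Dusp1* and *Dusp2* below 0, whereas *Spred3* is above and *Dusp10* below 0 in all 6 A17.2 libraries.

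The levels of the members spanned several orders of magnitude in resting cells. Per kilobase of annotated exon, the highest in unstimulated control cells were *Ier3* (151 CPM per kb), *Fosl1* (137), *Jun* (101), *Klf4* (65.8) and *Myc* (55.1). *Fos*, the best known gene of the group, stood at 0.327 CPM per kb, *Fosb* at 0.424, *Egr2* at 0.518, *Egr3* at 0.203 and *Atf3* at 0.0214. Of the FOS genes, whose proteins pair with JUN proteins in AP-1, *Fosl1* was thus the highest, and *Fosl2* stood at 3.9 CPM per kb.

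The first comparison asked how control cells responded to IL1β and IFNγ. *Zfp36*, *Junb*, *Phlda1* and *Maff* rose and *Dusp1* fell, which is 4 members higher and 1 lower of 40 tested. Across all 15649 genes tested, 3.14% were called higher and 0.185% lower. The median log2 fold change of the members was 0.05, against -0.04 over all genes. With the replicate block 13 members were called higher and 5 lower, where 10.4% and 8.88% of all genes were. The 3 cytokine libraries lay above the 3 unstimulated ones for 8 members and below them for 4, as for 8.72% and 6.91% of all genes.

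The same question was put to A17.2 cells. *Zfp36*, *Junb*, *Maff* and *Phlda1* rose and *Dusp1* and *Dusp2* fell, 4 higher and 2 lower, where 3.85% and 0.415% of all genes were called. The median of the members was -0.13 and that of all genes -0.05. With the block 7 members were called higher and 9 lower, beside 10.6% and 6.94% of all genes, and 8 members lay wholly above and 8 wholly below (9.28% and 7.78% of all genes). In both lines, leaving out the libraries numbered 2 of every group left 0 members called, leaving out those numbered 3 left 2 in control and 1 in A17.2 cells, and leaving out those numbered 1 gave 9 and 8. The shares of all genes called under these omissions are not given here, so the counts describe the members alone.

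The next pair of comparisons asked how A17.2 cells differed from control cells. In unstimulated cells *Ier3* and *Jund* were higher and *Dusp10* was lower with A17.2, 2 higher and 1 lower, where 2.86% and 3.57% of all genes were called. With cytokines *Nr4a1* and *Dusp10* were lower with A17.2 and 0 members were higher (3.17% and 3.68% of all genes); 8 members had an unadjusted p under 0.05 there in edgeR (20% of them, where 21% of all genes did), and DESeq2 called 4 members and 1889 of the 32274 genes with reads (5.85%). With the block the counts were 14 higher and 4 lower in unstimulated cells, where 15.9% and 17.5% of all genes were called, and 6 higher and 7 lower with cytokines, where 17.9% and 19.1% were. The libraries of the lines did not overlap for 9 members that were higher and 4 that were lower with A17.2 unstimulated (10.4% and 11.5% of all genes), and for 4 and 6 with cytokines (12.1% and 12.9%). Leaving out the libraries numbered 2, or those numbered 3, left 0 members called in both comparisons, and leaving out those numbered 1 gave 8 and 4, again without the shares of all genes beside them. Of the 49 values called with the block alone over these comparisons, 26 moved by over 1.5 times when 1 library was left out, and 0 of the 16 called without it did, and those that moved are given with each gene. Cytokine and A17.2 comparisons share groups of libraries, so their values are given side by side only. RNA was pooled from many cells, so more RNA per cell and more cells with the RNA cannot be told apart in any of these values.

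**Figure D2:**
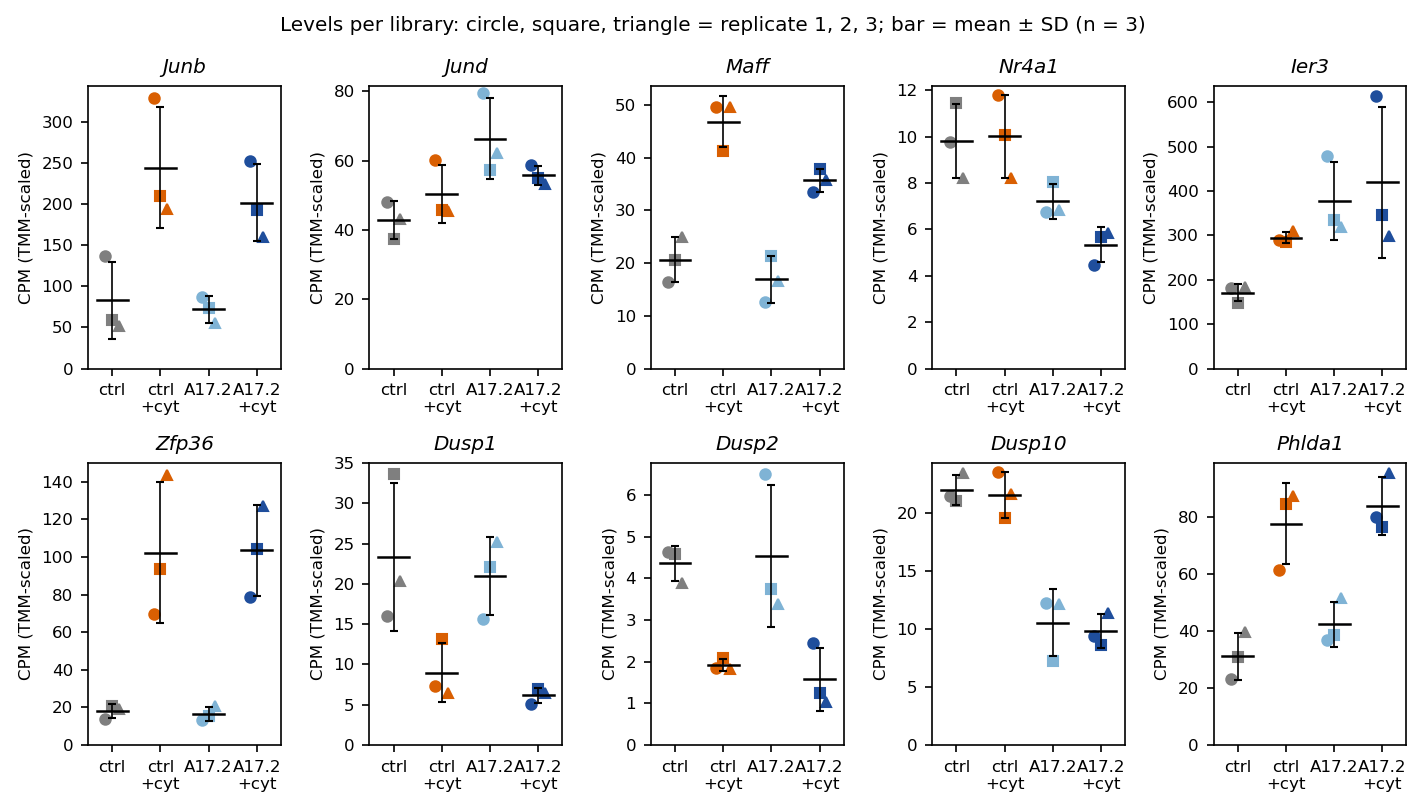
CPM, scaled by TMM, of the 10 members called in at least 1 comparison, on linear axes from 0. Points are libraries (circle, square and triangle for replicates 1, 2 and 3), bars the mean ± SD of 3. The label ctrl is the control vector and cyt is IL1β with IFNγ. *Zfp36* is at 13.5 to 20.7 CPM in the 6 unstimulated libraries and at 69.8 to 144 CPM in the 6 with cytokines, and *Dusp10* is at 19.5 CPM or more in every control library and 12.3 CPM or less in every A17.2 library.

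Among the AP-1 genes, *Junb*, whose protein pairs with FOS proteins and restrains c-JUN, lies at chr8:84974484-84978718 (GRCm38). It read 137, 59.4 and 52.2 CPM in unstimulated control, 329, 209 and 194 CPM in control with cytokines, 87.3, 73.6 and 54.7 CPM in unstimulated A17.2 and 252, 193 and 159.9 CPM in A17.2 cells with cytokines. The 6 cytokine libraries were all above the 6 unstimulated ones, and the libraries numbered 1 were the highest of each group. It rose in control cells (log2 fold change 1.56 ± 0.36 (SE), edgeR adjusted p = 0.0403) and in A17.2 cells (1.49 ± 0.36, adjusted p = 0.0406). In control cells the call was kept only without unstimulated replicate 1 (adjusted p = 0.00275), and without any other single library adjusted p was 0.0578 to 0.161; in A17.2 cells it was 0.0556 to 0.162. Scaling by total counts in place of TMM gave 0.0866 and 0.0962, and a fit of the 2 control groups alone 0.117. The counting is not stated to use strand, and 11 members share exon sequence with a gene on the other strand. *Prdx2*, a peroxidase gene on the other strand whose exons overlap those of *Junb*, had a log2 fold change of 0.08 in control and -0.08 in A17.2 cells with cytokines.

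*Maff*, a small MAF protein that binds DNA with AP-1 related partners, lies at chr15:79346621-79359076. It read 16.4, 20.6 and 24.9 CPM in unstimulated control, 49.6, 41.2 and 49.6 CPM in control with cytokines, 12.6, 21.4 and 16.7 CPM in unstimulated A17.2 and 33.6, 37.9 and 35.7 CPM in A17.2 cells with cytokines. Cytokine and unstimulated libraries did not overlap in either line. *Maff* rose in both, by 1.18 ± 0.21 (log2, SE) in control cells with adjusted p = 0.00691, and by 1.08 ± 0.21 in A17.2 cells with adjusted p = 0.00879. Each call was kept without any single library. Between the lines, *Maff* with cytokines was called lower in A17.2 cells with the block alone (log2 fold change -0.39 ± 0.20 (SE), edgeR adjusted p = 0.315 without and 0.0474 with the replicate block), and the libraries did not overlap.

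*Jun*, the main partner of FOS proteins, read 393, 306 and 272 CPM in unstimulated control, 587, 516 and 468 CPM in control with cytokines, 379, 439 and 418 CPM in unstimulated A17.2 and 463, 549 and 579 CPM in A17.2 cells with cytokines. Every cytokine library of a line was above every unstimulated one, but the control comparison narrowly missed the threshold (log2 fold change 0.69 ± 0.17 (SE), edgeR adjusted p = 0.0502 without and 0.00194 with the replicate block), and it was called without the libraries numbered 1 (adjusted p = 0.00618). In A17.2 cells the value was 0.37 ± 0.17 with adjusted p = 0.434. Unstimulated A17.2 and control cells overlapped in *Jun* (0.35, adjusted p = 0.302), and without the libraries numbered 1 it was called higher with A17.2 (0.54, adjusted p = 0.0268). *Fosl2*, which encodes the FOS-related protein FRA2, read 22.5, 41.7 and 49.1 CPM in unstimulated control, 47.8, 71.3 and 76.5 CPM in control with cytokines, 25.97, 39.00 and 54.4 CPM in unstimulated A17.2 and 44.95, 68.6 and 90.8 CPM in A17.2 cells with cytokines. Replicate 1 was the lowest and replicate 3 the highest of every group, and each cytokine library was above the unstimulated library of the same number. The response of *Fosl2* was called with the block alone, in control cells (0.79 ± 0.35, adjusted p = 0.411 without and 1.75e-05 with the block) and in A17.2 cells (0.78 ± 0.35, adjusted p = 0.423 without and 2.41e-05 with the block), and in the latter also without the libraries numbered 1 (0.0377). For *Fosl2*, the response of A17.2 cells was 0.51 without A17.2 cytokine replicate 3.

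*Jund*, the JUN gene that resting cells express most steadily, lies at chr8:70698949-70700616 and read 48.1, 37.2 and 43.04 CPM in unstimulated control, 60.1, 45.6 and 45.4 CPM in control with cytokines, 79.4, 57.3 and 62.3 CPM in unstimulated A17.2 and 58.9, 55.03 and 53.4 CPM in A17.2 cells with cytokines. Unstimulated A17.2 libraries were all above unstimulated control libraries. It was higher with A17.2 there (log2 fold change 0.63 ± 0.17 (SE), edgeR adjusted p = 0.0447), a call that was lost without any 1 of the 6 libraries (0.0513 to 0.165) with total-count scaling (0.0782), with other filters on low counts (0.0777 and 0.0524) and in a fit of the 2 groups alone (0.133). With cytokines the 2 lines overlapped (0.15 ± 0.17, adjusted p = 0.703). *Fosl1*, the gene of FRA1, stayed between 232 and 347 CPM in the 12 libraries, with fitted changes of -0.02 to 0.09 in the 4 comparisons. *Fos* ranged from 0.582 to 2.31 CPM and *Fosb* from 1.31 to 4.02 CPM, and of the 2 only *Fos* was called, in control cells with the block alone (1.06 ± 0.41, adjusted p = 0.284 without and 0.045 with the block). This call was made in 0 of the 3 block fits that left out a replicate number. For *Fos*, the response of control cells was 0.66 without control cytokine replicate 2.

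The EGR genes encode zinc finger factors that sit directly under ERK, and none of them passed the test without the block. *Egr1*, the highest of the class per kilobase, read 12.2, 28.4 and 17.3 CPM in unstimulated control, 12.1, 25.7 and 17.5 CPM in control with cytokines, 29.9, 32.2 and 32.9 CPM in unstimulated A17.2 and 24.5, 20.9 and 20.4 CPM in A17.2 cells with cytokines. The unstimulated A17.2 libraries were all above the unstimulated control ones, a difference called with the block alone (log2 fold change 0.72 ± 0.30 (SE), edgeR adjusted p = 0.223 without and 0.0085 with the replicate block), which was 0.48 without the libraries numbered 1. With cytokines the lines overlapped. The control response was -0.06 ± 0.31 and the A17.2 response -0.53 ± 0.30 on the log2 scale, neither of which passed either test. *Egr2* behaved otherwise. It read 1.16, 2.41 and 1.7 CPM in unstimulated control, 3.34, 5.49 and 3.1 CPM in control with cytokines, 0.812, 1.06 and 1.09 CPM in unstimulated A17.2 and 1.8, 1.56 and 1.87 CPM in A17.2 cells with cytokines. Each control library was above every A17.2 library in the same condition, and each cytokine library above every unstimulated library of its line. *Egr2* was called higher with cytokines with the block alone, in control cells (1.19 ± 0.33, adjusted p = 0.094 without and 0.00282 with the block) and in A17.2 cells (0.82 ± 0.34, adjusted p = 0.334 without and 0.0408 with the block), and lower with A17.2 with the block alone, unstimulated (-0.82 ± 0.34, adjusted p = 0.21 without and 0.0382 with the block) and with cytokines (-1.19 ± 0.33, adjusted p = 0.0537 without and 0.00223 with the block). Without the libraries numbered 1 the last of these passed the test without the block (adjusted p = 0.0346). For *Egr1*, the unstimulated value with A17.2 was 0.48 without unstimulated control replicate 1 and 1.12 without unstimulated control replicate 2. For *Egr2*, the unstimulated value with A17.2 was -0.51 without unstimulated control replicate 2. *Egr3* stood at 0.173 to 1.23 CPM and was called in no comparison.

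*Nr4a1*, an orphan nuclear receptor induced by many stimuli, lies at chr15:101254269-101274795. It read 9.76, 11.4 and 8.22 CPM in unstimulated control, 11.8, 10.05 and 8.21 CPM in control with cytokines, 6.74, 8.06 and 6.82 CPM in unstimulated A17.2 and 4.47, 5.68 and 5.84 CPM in A17.2 cells with cytokines. In each condition all A17.2 libraries were below all control libraries. It was lower with A17.2 in the presence of cytokines (log2 fold change -0.91 ± 0.21 (SE), edgeR adjusted p = 0.0245), and unstimulated with the block alone (-0.44 ± 0.20, adjusted p = 0.265 without and 0.0435 with the block). The call with cytokines was kept without control replicate 3 (adjusted p = 0.0396) and lost without any other single library (0.0572 to 0.0907), without the libraries numbered 1 (0.0869), with no filter on low counts (0.0739) and in a fit of the 2 groups alone (0.0861). For *Nr4a1*, the unstimulated value with A17.2 was -0.30 without unstimulated control replicate 2. *Nr4a2*, a close relative that is not a member, moved the other way, from 2.98, 3.61 and 3.38 CPM in control to 9.04, 7.76 and 7.33 CPM in A17.2 cells with cytokines (1.27 ± 0.20, adjusted p = 0.00543).

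Of the 4 KLF genes 0 were called in any comparison without the block, and 1 had an unadjusted p under 0.05, with A17.2 in the presence of cytokines. *Klf4*, a zinc finger factor of epithelial differentiation and the highest of the class per kilobase, read 175, 236 and 191 CPM in unstimulated control, 198, 233 and 196 CPM in control with cytokines, 185, 255 and 270.0 CPM in unstimulated A17.2 and 165, 219 and 239 CPM in A17.2 cells with cytokines. Its libraries overlapped in all 4 comparisons, with fitted changes from -0.19 to 0.24. *Klf2*, a factor known for restraining inflammation in endothelium and leukocytes, read 16.8, 25.7 and 13.6 CPM in unstimulated control, 17.22, 22.9 and 14.7 CPM in control with cytokines, 12.5, 21.03 and 13.9 CPM in unstimulated A17.2 and 9.31, 12.9 and 10.4 CPM in A17.2 cells with cytokines. With cytokines the 3 A17.2 libraries lay below the 3 control libraries. It was called with the block alone, lower with cytokines in A17.2 cells (-0.54 ± 0.28, adjusted p = 0.535 without and 0.00911 with the block) and lower with A17.2 in the presence of cytokines (-0.75 ± 0.28, adjusted p = 0.142 without and 0.000402 with the block). *Klf6* read 19.9, 25.8 and 32.6 CPM in unstimulated control, 27.8, 36.1 and 32.8 CPM in control with cytokines, 31.03, 33.4 and 36.3 CPM in unstimulated A17.2 and 26.8, 34.4 and 39.7 CPM in A17.2 cells with cytokines. Library number 1 was the lowest in each group, and *Klf6* was called higher with the block alone in control cells with cytokines (0.31 ± 0.20, adjusted p = 0.685 without and 0.0494 with the block) and in unstimulated A17.2 cells (0.36 ± 0.20, adjusted p = 0.377 without and 0.012 with the block; 0.22 without the libraries numbered 1). For *Klf2*, the response of A17.2 cells was -0.28 without unstimulated A17.2 replicate 2. For *Klf6*, the response of control cells was 0.16 without unstimulated control replicate 1 and 0.50 without unstimulated control replicate 3, and the unstimulated value with A17.2 was 0.21 without unstimulated control replicate 1 and 0.55 without unstimulated control replicate 3. *Klf10* ranged from 15.6 to 43.6 CPM and was called in none.

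The largest response of all members was that of *Zfp36*, which encodes tristetraprolin, an RNA-binding protein that marks cytokine messages for decay. *Zfp36* lies at chr7:28376784-28380253. It read 13.9, 20.7 and 19.3 CPM in unstimulated control, 69.8, 93.7 and 144 CPM in control with cytokines, 13.5, 15.6 and 20.7 CPM in unstimulated A17.2 and 78.8, 104 and 127 CPM in A17.2 cells with cytokines. All 6 cytokine libraries were above all 6 unstimulated ones, by more than 3 times. It rose 5.7-fold in control cells (log2 fold change 2.51 ± 0.29 (SE), edgeR adjusted p = 0.000416) and 6.23-fold in A17.2 cells (2.64 ± 0.30, adjusted p = 0.0002). Both calls were kept without any single library, and without the libraries numbered 2 of every group adjusted p was 0.0874 and 0.0752. Between the lines *Zfp36* was not called, with -0.11 ± 0.28 unstimulated and 0.02 ± 0.28 with cytokines on the log2 scale.

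*Ier3* encodes a small membrane protein that prolongs ERK signalling and protects from cell death, and it lies at chr17:35821684-35822923. It read 181, 149 and 184 CPM in unstimulated control, 290.3, 286 and 309.7 CPM in control with cytokines, 479.5, 335 and 320.2 CPM in unstimulated A17.2 and 614, 346 and 299.9 CPM in A17.2 cells with cytokines. Unstimulated A17.2 libraries were all above the unstimulated control ones, and above the control libraries with cytokines too. *Ier3* was higher with A17.2 in unstimulated cells (log2 fold change 1.14 ± 0.26 (SE), edgeR adjusted p = 0.0219). This call was kept without A17.2 replicate 2 or 3 and lost without the other 4 single libraries, where adjusted p was 0.0517 to 0.1; without the libraries numbered 1 it was 0.00419. With cytokines the lines overlapped, and the difference was called with the block alone (0.51 ± 0.25, adjusted p = 0.291 without and 0.0439 with the block); without the libraries numbered 1 it was 0.11. For *Ier3*, the value with A17.2 and cytokines was 0.13 without A17.2 cytokine replicate 1. In control cells *Ier3* was called higher with cytokines with the block alone (0.79 ± 0.25, adjusted p = 0.171 without and 0.00287 with the block), or without the libraries numbered 1 (adjusted p = 0.00863), while in A17.2 cells the value was 0.15 ± 0.25, adjusted p = 0.979.

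*Ier2* and *Ier5* encode related nuclear proteins of the immediate early response. *Ier2* read 74.7, 76.5 and 46.1 CPM in unstimulated control, 62.4, 50.1 and 29.6 CPM in control with cytokines, 78.9, 91.96 and 59.4 CPM in unstimulated A17.2 and 52.3, 51.7 and 34.2 CPM in A17.2 cells with cytokines. Each cytokine library lay below the unstimulated library of its number, a change called with the block alone in control cells (-0.48 ± 0.29, adjusted p = 0.648 without and 0.00392 with the block) and in A17.2 cells (-0.74 ± 0.30, adjusted p = 0.307 without and 9.57e-05 with the block). For *Ier2*, the response of control cells was -0.23 without control cytokine replicate 3. *Ier5* read 48.8, 47.1 and 43.5 CPM in unstimulated control, 76.4, 65.9 and 61.4 CPM in control with cytokines, 39.1, 55.5 and 50.01 CPM in unstimulated A17.2 and 52.9, 64.5 and 63.04 CPM in A17.2 cells with cytokines. Control cytokine libraries were all above unstimulated ones, and the change was called with the block alone (0.55 ± 0.15, adjusted p = 0.0989 without and 0.00513 with the block). *Myc* stood between 91.3 and 174 CPM and *Btg2*, an antiproliferative gene, between 1.92 and 5.54 CPM. Neither was called in any comparison.

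**Figure D3:**
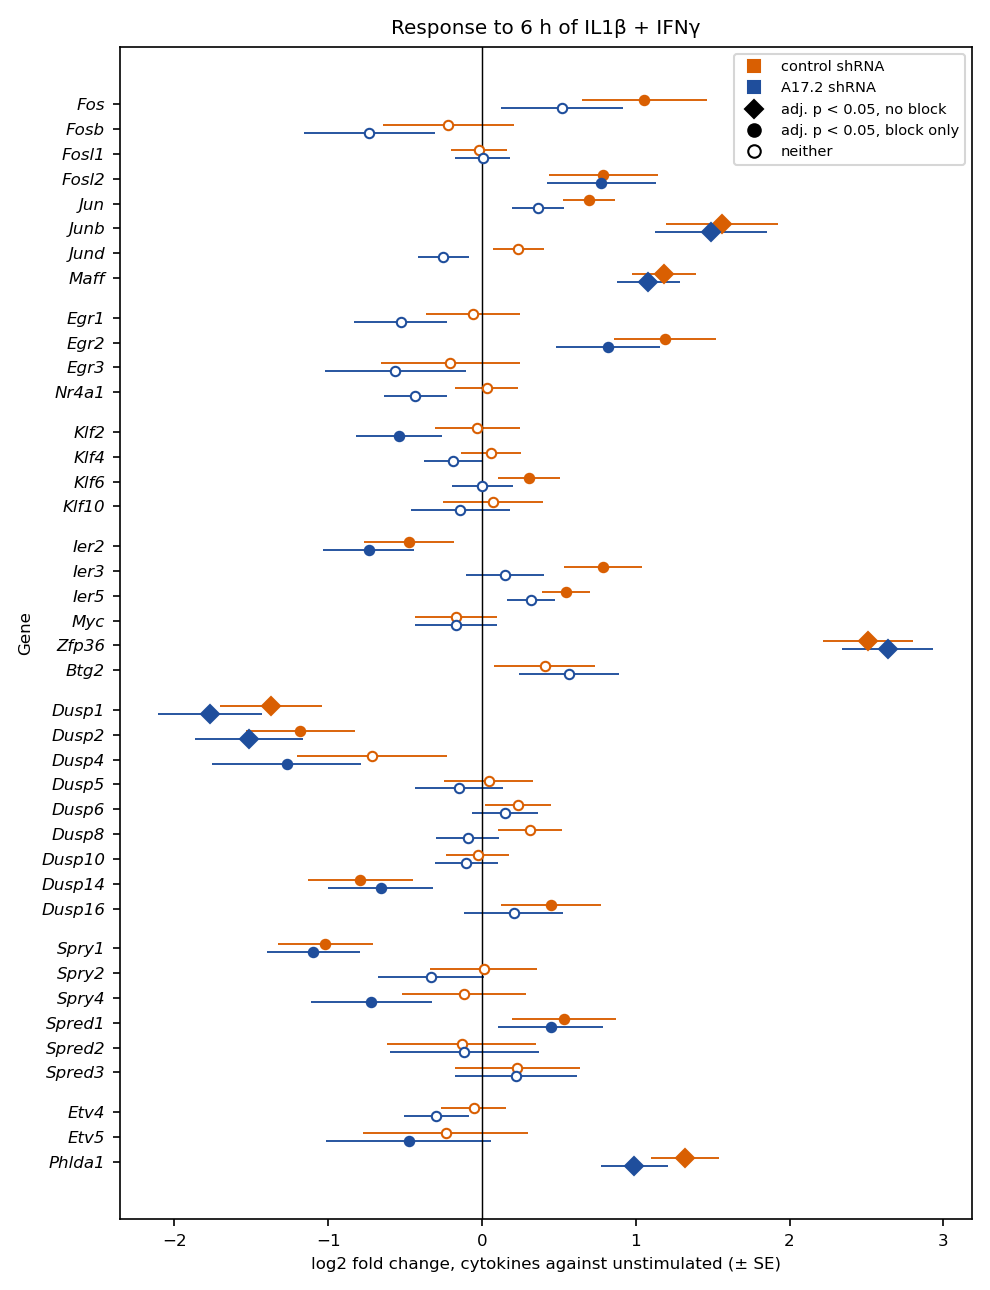
Fitted log2 fold change (± SE) of each tested member after 6 h of IL1β and IFNγ, in control (orange) and A17.2 cells (blue), by class. Diamonds passed edgeR's test without the block, filled circles with the replicate block alone and open circles neither. *Zfp36* is farthest to the right, at 2.51 and 2.64, and *Dusp1* farthest to the left, at -1.37 and -1.77.

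The dual-specificity phosphatases differ in what they act on. *Dusp1* and *Dusp2* encode nuclear enzymes for ERK, JNK and p38, *Dusp4* and *Dusp5* nuclear enzymes, *Dusp6* the cytoplasmic phosphatase of ERK, and *Dusp8*, *Dusp10* and *Dusp16* enzymes that prefer JNK and p38. *Dusp1*, at chr17:26505590-26562128, read 16.02, 33.6 and 20.4 CPM in unstimulated control, 7.33, 13.1 and 6.43 CPM in control with cytokines, 15.6, 22.1 and 25.2 CPM in unstimulated A17.2 and 5.11, 6.89 and 6.47 CPM in A17.2 cells with cytokines. Every cytokine library was below every unstimulated library. *Dusp1* fell in control cells (log2 fold change -1.37 ± 0.33 (SE), edgeR adjusted p = 0.047) and in A17.2 cells (-1.77 ± 0.34, adjusted p = 0.00873). In A17.2 cells the call was kept without any single library, and in control cells it was kept without unstimulated replicate 1 (0.0318) or cytokine replicate 2 (0.0214) and lost without the other 4 (0.0762 to 0.244) and in a fit of the 2 control groups alone (0.154). Without the libraries numbered 2 of every group both calls of *Dusp1* were lost. *Ergic1*, which overlaps *Dusp1* on the other strand, was at 328 to 377 CPM in the group means, with log2 fold changes of -0.10 and -0.06.

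*Dusp2*, at chr2:127336159-127338376, read 4.63, 4.58 and 3.88 CPM in unstimulated control, 1.85, 2.08 and 1.83 CPM in control with cytokines, 6.49, 3.74 and 3.37 CPM in unstimulated A17.2 and 2.44, 1.26 and 1.04 CPM in A17.2 cells with cytokines. The cytokine libraries of each line lay below its unstimulated libraries. It fell in A17.2 cells (log2 fold change -1.52 ± 0.35 (SE), edgeR adjusted p = 0.0314), a call kept without unstimulated replicate 3 (0.0339) or cytokine replicate 1 (0.00638) and lost without the other 4 (0.0593 to 0.15) or in a fit of the 2 A17.2 groups alone (0.189), and in control cells it was called with the block alone (-1.18 ± 0.35, adjusted p = 0.128 without and 0.0033 with the block) or without the libraries numbered 1 (0.0428). *Dusp4* read 11.6, 13.04 and 33.4 CPM in unstimulated control, 6.43, 10.3 and 18.5 CPM in control with cytokines, 58.7, 25.2 and 54.5 CPM in unstimulated A17.2 and 21.4, 13.1 and 22.8 CPM in A17.2 cells with cytokines. Its libraries differed by nearly 3 times within a group. It was called with the block alone, lower with cytokines in A17.2 cells (-1.27 ± 0.49, adjusted p = 0.27 without and 0.00383 with the block) and higher with A17.2 in unstimulated cells (1.26 ± 0.49, adjusted p = 0.177 without and 0.00158 with the block); without the libraries numbered 1 the latter was 0.74. For *Dusp4*, the unstimulated value with A17.2 was 1.90 without unstimulated control replicate 3. *Dusp14*, an atypical phosphatase, read 15.3, 21.7 and 16.7 CPM in unstimulated control, 6.73, 13.6 and 10.6 CPM in control with cytokines, 5.9, 11.9 and 12.9 CPM in unstimulated A17.2 and 4.38, 7.5 and 7.57 CPM in A17.2 cells with cytokines. It was called lower with the block alone in all 4 comparisons, at -0.79 ± 0.34 and -0.66 ± 0.34 with cytokines and at -0.81 ± 0.34 and -0.67 ± 0.34 with A17.2, where the adjusted p without the block was 0.378, 0.541, 0.22 and 0.305 and with it 0.00142, 0.0129, 0.000586 and 0.00613. For *Dusp14*, the unstimulated value with A17.2 was -0.53 without unstimulated A17.2 replicate 1, and the value with A17.2 and cytokines was -0.42 without control cytokine replicate 2.

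*Dusp10*, at chr1:184013302-184075636, differed between the lines in both conditions. It read 21.4, 21.03 and 23.4 CPM in unstimulated control, 23.5, 19.5 and 21.6 CPM in control with cytokines, 12.3, 7.2 and 12.1 CPM in unstimulated A17.2 and 9.4, 8.63 and 11.4 CPM in A17.2 cells with cytokines. All 6 A17.2 libraries were below all 6 control libraries, whether or not cytokines were added. It was lower with A17.2 in unstimulated cells (log2 fold change -1.06 ± 0.21 (SE), edgeR adjusted p = 0.012) and with cytokines (-1.13 ± 0.21, adjusted p = 0.0103), and each call was kept without any single library. In a fit of the 2 unstimulated groups alone adjusted p was 0.0757. The response to cytokines was -0.03 ± 0.20 in control and -0.10 ± 0.21 in A17.2 cells.

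*Dusp6*, whose transcript is widely used as a gauge of ERK activity, read 21.9, 30.5 and 30.8 CPM in unstimulated control, 22.3, 39.7 and 35.6 CPM in control with cytokines, 40.8, 43.8 and 46.4 CPM in unstimulated A17.2 and 40.5, 50.4 and 54.3 CPM in A17.2 cells with cytokines. In each condition all A17.2 libraries were above all control libraries, and the difference was called with the block alone, unstimulated (0.66 ± 0.22, adjusted p = 0.107 without and 0.000322 with the block) and with cytokines (0.57 ± 0.22, adjusted p = 0.147 without and 0.000886 with the block). Without the libraries numbered 1 it passed the test without the block in both (0.0305 and 0.0424). *Dusp5* read 6.58, 9.59 and 5.67 CPM in unstimulated control, 6.02, 9.46 and 6.94 CPM in control with cytokines, 10.1, 18.5 and 11.6 CPM in unstimulated A17.2 and 9.8, 14.6 and 11.9 CPM in A17.2 cells with cytokines. It too had no overlap between the lines in either condition and was called with the block alone (0.88 ± 0.29, adjusted p = 0.106 without and 0.000173 with the block unstimulated, and 0.69 ± 0.29, adjusted p = 0.2 without and 0.000905 with the block with cytokines). *Dusp8* read 13.3, 13.99 and 11.9 CPM in unstimulated control, 19.1, 15.7 and 13.9 CPM in control with cytokines, 15.1, 22.9 and 20.96 CPM in unstimulated A17.2 and 15.2, 22.9 and 17.3 CPM in A17.2 cells with cytokines. It was called higher in unstimulated A17.2 cells with the block alone (0.59 ± 0.21, adjusted p = 0.134 without and 0.0111 with the block), or without the libraries numbered 1 (0.038). *Dusp16* read 9.36, 15.03 and 20.3 CPM in unstimulated control, 14.5, 22.7 and 23.6 CPM in control with cytokines, 14.6, 17.5 and 26.1 CPM in unstimulated A17.2 and 16.4, 22.8 and 28.05 CPM in A17.2 cells with cytokines. Here the groups overlapped, replicate 1 was the lowest of each, and calls came with the block alone, higher with cytokines in control cells (0.45 ± 0.32, adjusted p = 0.74 without and 0.01 with the block) and higher in unstimulated A17.2 cells (0.38 ± 0.32, adjusted p = 0.626 without and 0.0146 with the block). For *Dusp6*, the value with A17.2 and cytokines was 0.36 without control cytokine replicate 1. For *Dusp5*, the unstimulated value with A17.2 was 0.58 without unstimulated A17.2 replicate 2. For *Dusp16*, the response of control cells was 0.22 without unstimulated control replicate 1 and 0.74 without unstimulated control replicate 3, and the unstimulated value with A17.2 was 0.14 without unstimulated control replicate 1, 0.67 without unstimulated control replicate 3 and 0.11 without unstimulated A17.2 replicate 3. *Dusp5*, *Dusp6* and *Dusp8* were called in neither cytokine response by either test.

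The Sprouty and SPRED genes encode inhibitors that act between receptor and RAF. In unstimulated cells all 6 had a positive log2 fold change with A17.2, with a median of 0.59 beside -0.01 over all genes. *Spred2* went from 0.06 to -0.05 without the libraries numbered 1, and the others stayed above 0. With all libraries, 0 of the 6 passed edgeR's test without the block and 3 had an unadjusted p under 0.05, as had 19% of all genes. DESeq2 called *Spry1* and *Spred3* (and 5.21% of all genes with reads), and with the block 4 were called higher, where 15.9% of all genes were. With cytokines 5 of the 6 were positive, with a median of 0.36 beside 0.02 over all genes, 0 passed without the block, 2 had an unadjusted p under 0.05 (21% of all genes), and 3 were called higher with the block (17.9%). *Spred3* read 20.7, 11.9 and 9.76 CPM in unstimulated control, 21.4, 14.3 and 14.2 CPM in control with cytokines, 58.99, 28.2 and 27.1 CPM in unstimulated A17.2 and 68.3, 31.2 and 33.9 CPM in A17.2 cells with cytokines. In both conditions every A17.2 library was above every control library, and library number 1 was the highest of each group. The difference was 2.69-fold unstimulated (log2 fold change 1.43 ± 0.41 (SE), edgeR adjusted p = 0.064 without and 8.34e-07 with the replicate block) and 2.68-fold with cytokines (1.42 ± 0.41, adjusted p = 0.0626 without and 1.51e-06 with the block). Without the libraries numbered 1 it passed the test without the block, at 1.32 (adjusted p = 0.00123) and 1.19 (adjusted p = 0.00215). *Ggn*, a gene that overlaps *Spred3* on the other strand, stood at 0.426 to 0.593 CPM in the group means.

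*Spry1* read 3.25, 4.58 and 6.61 CPM in unstimulated control, 1.55, 2.79 and 2.72 CPM in control with cytokines, 6.99, 10.02 and 9.86 CPM in unstimulated A17.2 and 3.83, 4.08 and 4.63 CPM in A17.2 cells with cytokines. The A17.2 libraries were above the control libraries in each condition, and the cytokine libraries below the unstimulated ones in each line. All 4 comparisons were called with the block alone, higher with A17.2 unstimulated (0.90 ± 0.30, adjusted p = 0.113 without and 0.000704 with the block) and with cytokines (0.82 ± 0.31, adjusted p = 0.147 without and 0.00332 with the block), and lower with cytokines in control cells (-1.02 ± 0.31, adjusted p = 0.136 without and 0.00176 with the block) and in A17.2 cells (-1.10 ± 0.30, adjusted p = 0.0764 without and 0.000285 with the block). Without the libraries numbered 1 both cytokine responses of *Spry1* passed without the block (0.0459 and 0.0141). *Spry4* read 3.23, 4.39 and 4.94 CPM in unstimulated control, 2.44, 3.92 and 5.16 CPM in control with cytokines, 5.62, 8.1 and 13.7 CPM in unstimulated A17.2 and 3.47, 5.33 and 7.82 CPM in A17.2 cells with cytokines. It was called with the block alone, higher in unstimulated A17.2 cells (1.13 ± 0.40, adjusted p = 0.136 without and 0.00014 with the block), higher with A17.2 in the presence of cytokines (0.52 ± 0.40, adjusted p = 0.53 without and 0.0253 with the block) and lower with cytokines in A17.2 cells (-0.72 ± 0.39, adjusted p = 0.58 without and 0.00414 with the block). Without the libraries numbered 1, the first of these passed without the block (0.0376). For *Spry4*, the response of A17.2 cells was -0.31 without unstimulated A17.2 replicate 3 and -0.47 without A17.2 cytokine replicate 1, and the unstimulated value with A17.2 was 0.71 without unstimulated A17.2 replicate 3, and the value with A17.2 and cytokines was 0.29 without control cytokine replicate 1, 0.79 without control cytokine replicate 3 and 0.18 without A17.2 cytokine replicate 3. *Spred1* read 16.5, 24.4 and 37.97 CPM in unstimulated control, 27.05, 39.3 and 47.5 CPM in control with cytokines, 25.1, 30.2 and 40.4 CPM in unstimulated A17.2 and 28.6, 43.8 and 57.99 CPM in A17.2 cells with cytokines. Replicate 1 was the lowest and replicate 3 the highest of each group, and the block called it higher with cytokines in control (0.53 ± 0.34, adjusted p = 0.668 without and 0.00117 with the block) and A17.2 cells (0.45 ± 0.34, adjusted p = 0.8 without and 0.00995 with the block) and higher in unstimulated A17.2 cells (0.28 ± 0.34, adjusted p = 0.765 without and 0.023 with the block; 0.15 without the libraries numbered 1). For *Spred1*, the response of control cells was 0.30 without unstimulated control replicate 1, 0.90 without unstimulated control replicate 3 and 0.34 without control cytokine replicate 3, and the response of A17.2 cells was 0.67 without A17.2 cytokine replicate 1 and 0.18 without A17.2 cytokine replicate 3, and the unstimulated value with A17.2 was 0.04 without unstimulated control replicate 1, 0.64 without unstimulated control replicate 3, 0.42 without unstimulated A17.2 replicate 1 and 0.07 without unstimulated A17.2 replicate 3. *Spred2* read 16.7, 39.98 and 52.1 CPM in unstimulated control, 17.9, 41.7 and 39.4 CPM in control with cytokines, 22.8, 36.4 and 54.3 CPM in unstimulated A17.2 and 18.5, 39.5 and 47.03 CPM in A17.2 cells with cytokines. Library number 1 was the lowest of each group, at a mean of 0.433 times the others, and *Spred2* was called in none of the comparisons, nor was *Spry2*, which ranged from 13.8 to 36.2 CPM.

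**Figure D4:**
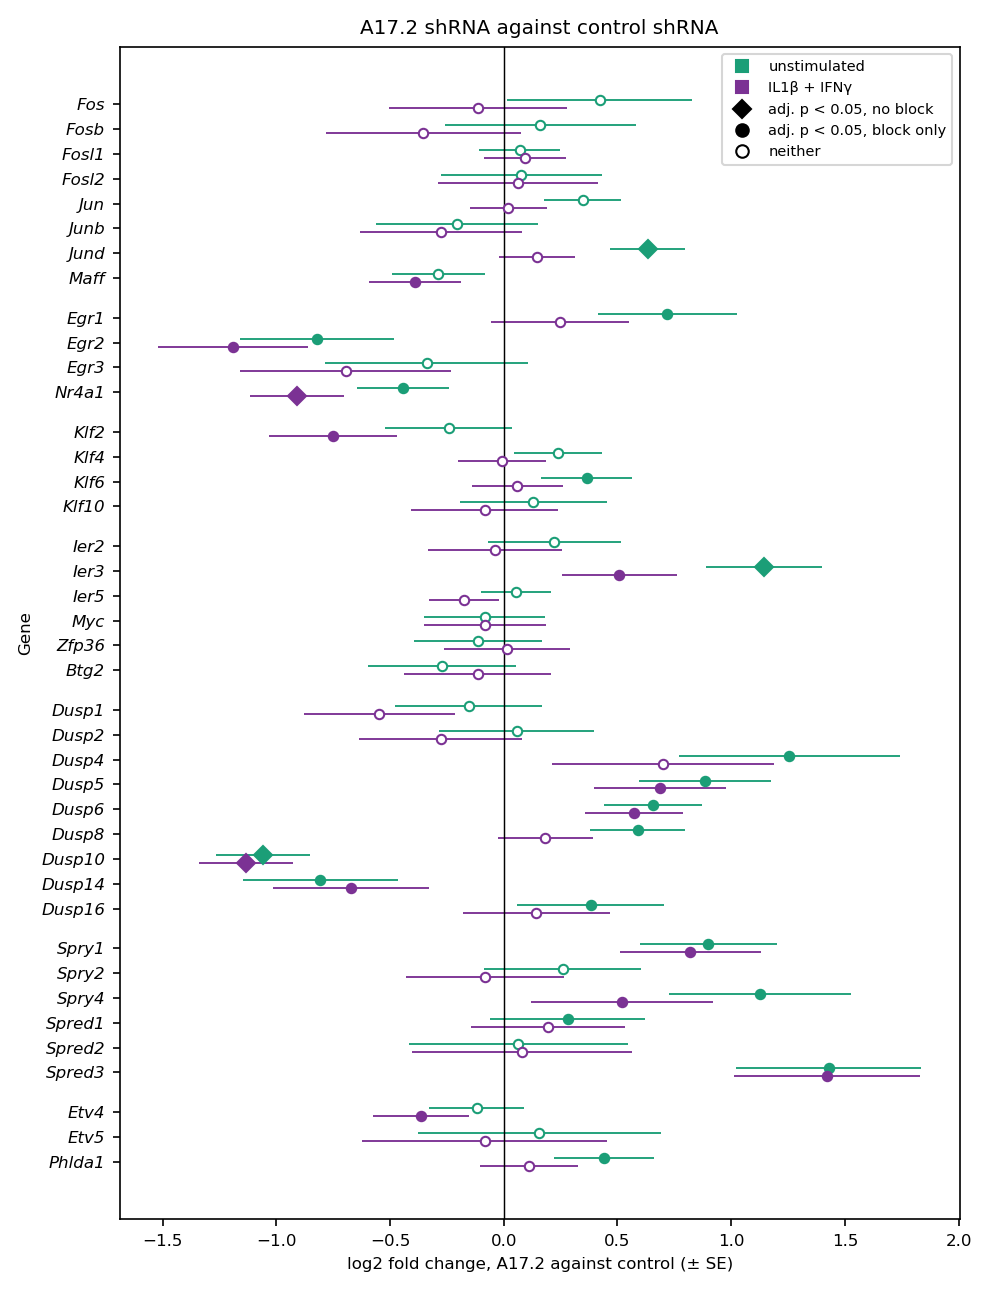
Fitted log2 fold change (± SE) of each tested member in A17.2 against control cells, unstimulated (green) and with IL1β and IFNγ (purple), by class. Diamonds passed edgeR's test without the block, filled circles with the replicate block alone and open circles neither. All 6 Sprouty and SPRED genes are at or above 0.06 in unstimulated cells, and *Dusp10* is at -1.06 and -1.13.

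Of the 3 genes read as ERK output, *Phlda1* responded to the cytokines. It encodes a pleckstrin homology-like protein and lies at chr10:111506286-111508645. It read 23.2, 30.9 and 39.6 CPM in unstimulated control, 61.4, 84.6 and 87.5 CPM in control with cytokines, 36.8, 38.7 and 51.6 CPM in unstimulated A17.2 and 80.2, 76.4 and 95.7 CPM in A17.2 cells with cytokines. All 6 cytokine libraries were above all 6 unstimulated ones. *Phlda1* rose in control cells (log2 fold change 1.32 ± 0.22 (SE), edgeR adjusted p = 0.00536), a call kept without any single library, and in A17.2 cells (0.99 ± 0.22, adjusted p = 0.0228), a call kept without unstimulated replicate 3 (0.0225) or cytokine replicate 1 (0.046) and lost without the other 4 (0.0502 to 0.127). It was called higher in unstimulated A17.2 cells with the block alone (0.44 ± 0.22, adjusted p = 0.313 without and 0.00482 with the block). For *Phlda1*, the unstimulated value with A17.2 was 0.27 without unstimulated control replicate 1 and 0.27 without unstimulated A17.2 replicate 3. *Etv4* and *Etv5* encode ETS factors of the PEA3 group. *Etv4* read 53.1, 61.7 and 66.9 CPM in unstimulated control, 41.05, 58.9 and 75.01 CPM in control with cytokines, 52.7, 51.8 and 62.8 CPM in unstimulated A17.2 and 39.4, 42.4 and 54.4 CPM in A17.2 cells with cytokines, and was called lower with A17.2 in the presence of cytokines with the block alone (-0.36 ± 0.21, adjusted p = 0.374 without and 0.0201 with the block). *Etv5* read 10.9, 26.4 and 30.9 CPM in unstimulated control, 8.64, 20.8 and 28.2 CPM in control with cytokines, 13.2, 27.2 and 35.4 CPM in unstimulated A17.2 and 8.64, 20.6 and 25.2 CPM in A17.2 cells with cytokines. Library number 1 was the lowest of each group, at a mean of 0.385 times the others, and *Etv5* was called lower with cytokines in A17.2 cells with the block alone (-0.48 ± 0.54, adjusted p = 0.929 without and 0.00181 with the block). For *Etv4*, the value with A17.2 and cytokines was -0.56 without control cytokine replicate 1 and -0.14 without control cytokine replicate 3. For *Etv5*, the response of A17.2 cells was -0.75 without unstimulated A17.2 replicate 1, -0.15 without unstimulated A17.2 replicate 3, -0.14 without A17.2 cytokine replicate 1 and -0.79 without A17.2 cytokine replicate 3.

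Many members differed by replicate number in the same way in every group. Library number 1 was the lowest of its group in all 4 groups for 14 of the 40 members (35%), and for 25.1% of all genes tested. The 14 included *Etv5*, *Spred2*, *Spry2*, *Spry4*, *Fosl2* and *Myc*. Number 1 was the highest in all 4 groups for *Junb*, *Jund* and *Spred3* (7.5% of members, against 26% of all genes).

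The last comparison asked whether A17.2 cells responded to the cytokines differently from control cells. The difference of the responses was below 0 for 34 of the 40 members, with a median of -0.24, whereas it was below 0 for 7596 of the 15649 genes tested, with a median of 0.01. No member passed the test in edgeR, with or without the block, or in DESeq2, and 0 members had an unadjusted p under 0.05. Over all genes 0 were called without the block (209 at an unadjusted p under 0.05) and 0.409% higher and 0.00639% lower with it, and DESeq2 called 24. The lowest values were those of *Ier3* (-0.64 ± 0.36 SE), *Spry4* (-0.60 ± 0.56), *Dusp4* (-0.55 ± 0.68), *Fos* (-0.54 ± 0.56), *Fosb* (-0.51 ± 0.60) and *Klf2* (-0.51 ± 0.39), and the highest that of *Btg2* (0.16 ± 0.46). Within the replicate numbers, the difference was below 0 in all 3 for 23 of the 40 members and above 0 in all 3 for 0, where 19.5% and 18% of all genes tested were. With DESeq2's size factors 33 members were below 0 and with total counts 35. The direction was already known from these data when the genes were chosen, so the count is a description.

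**Figure D5:**
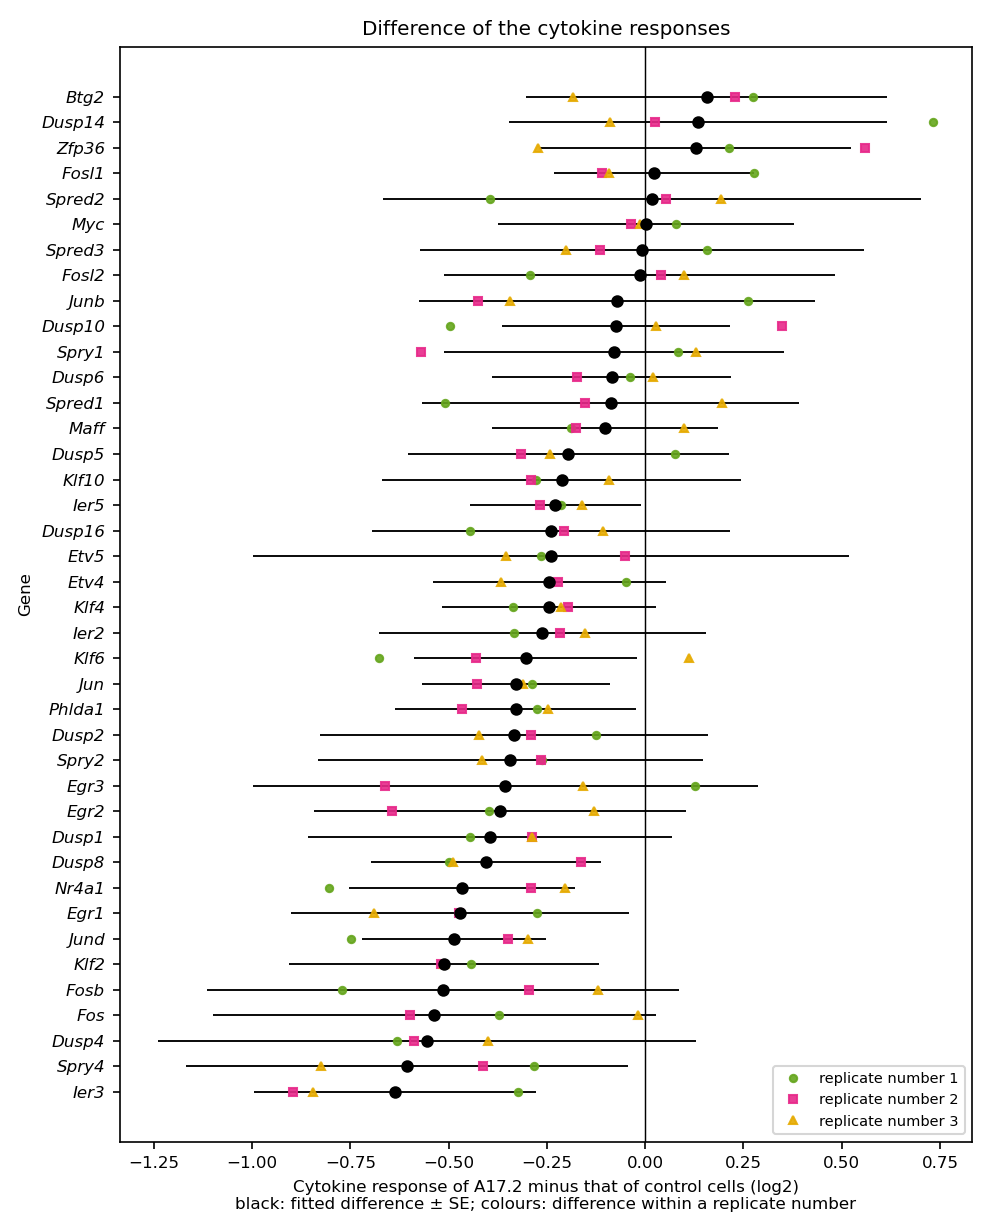
Cytokine response of A17.2 cells minus that of control cells, in log2 units, for the 40 tested members in order of size. Black points are the fitted difference ± SE and coloured points the difference within replicate number 1, 2 or 3. Of the 40 fitted points 34 lie below 0, and the lowest, *Ier3*, is at -0.64 ± 0.36.

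Genes around the members were read from lists of the pathway that hold none of them. Without the block 3.14% and 3.85% of all genes tested were called higher with cytokines in control and A17.2 cells and 0.185% and 0.415% lower, and 2.86% were called higher and 3.57% lower with A17.2 unstimulated, and 3.17% and 3.68% with cytokines, beside which the counts of these lists stand. Of 21 genes of the RAS, RAF, MEK and ERK core, all tested, 0 were called in any comparison without the block, with medians of 0.09, -0.06, 0.03 and -0.06 in the order above. With it 4 were higher and 1 lower with cytokines in control cells, 4 and 3 in A17.2 cells, 2 and 5 with A17.2 unstimulated, and 0 and 8 with A17.2 in the presence of cytokines. The shares of all genes called higher and lower with the block were 10.4% and 8.88%, 10.6% and 6.94%, 15.9% and 17.5%, and 17.9% and 19.1% in that order. Of 16 JNK and p38 kinases 14 were tested. With cytokines 1 rose in each line, *Map3k8*, which is counted in this list although it also acts on the MEK and ERK side. With A17.2, 1 was lower unstimulated and 2 with cytokines. *Map3k8*, a kinase that links inflammatory receptors to MEK, rose with cytokines from 1.4, 2.69 and 1.28 to 4.17, 5.1 and 4.13 CPM in control cells (log2 fold change 1.33 ± 0.32 (SE), edgeR adjusted p = 0.047) and from 1.94, 1.85 and 1.49 to 5.42, 5.2 and 8.27 CPM in A17.2 cells (1.84 ± 0.32, adjusted p = 0.00499). *Mapk8*, the gene of JNK1, was lower with A17.2, at 16.1, 19.1 and 17.8 against 24.6, 23.96 and 26.4 CPM unstimulated (-0.50 ± 0.13, adjusted p = 0.0383) and 15.7, 17.04 and 18.02 against 26.1, 28.8 and 26.6 CPM with cytokines (-0.68 ± 0.13, adjusted p = 0.011). Its activator *Map2k4* was lower with A17.2 in the presence of cytokines (-0.67 ± 0.15, adjusted p = 0.0239) and missed the threshold unstimulated (-0.46 ± 0.15, adjusted p = 0.101 without and 0.00364 with the block).

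Of 27 further immediate early genes 24 were tested, of which 5 were higher and 0 lower with cytokines in control cells and 4 and 0 in A17.2 cells. *Csrnp1*, a nuclear protein gene induced by cytokines, rose from 7.9, 13.8 and 13.2 to 62.1, 73.9 and 79.7 CPM in control cells (log2 fold change 2.63 ± 0.28 (SE), edgeR adjusted p = 0.000212) and from 8.8, 11.7 and 13.6 to 37.1, 64.9 and 65.1 CPM in A17.2 cells (2.29 ± 0.28, adjusted p = 0.000359). *Cebpd*, a factor of the acute phase response, rose in control (2.95 ± 0.41, adjusted p = 0.00138) and in A17.2 cells (2.33 ± 0.39, adjusted p = 0.00405). With A17.2, 2 of the 24 were higher and 1 lower unstimulated, and 1 and 1 with cytokines. *Sgk1*, a kinase regulated by serum and glucocorticoids, was lower, at 91.5, 80.8 and 82.8 against 166, 197 and 128 CPM unstimulated (-0.95 ± 0.22, adjusted p = 0.0257) and 48.8, 53.2 and 49.6 against 102, 163 and 89.3 CPM with cytokines (-1.23 ± 0.22, adjusted p = 0.00957).

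Of 14 AP-1 partner genes 12 were tested, and 3 rose in each line. *Batf2*, an interferon-induced partner of JUN proteins, went from 0.529, 0.614 and 0.597 to 153, 109 and 121 CPM in control cells (log2 fold change 7.78 ± 0.20 (SE), edgeR adjusted p = 1.92e-09) and from 0.531, 0.48 and 0.544 to 181, 182 and 165 CPM in A17.2 cells (8.39 ± 0.20, adjusted p = 1e-09). *Mafk*, a small MAF gene like *Maff*, rose in control (1.37 ± 0.13, adjusted p = 0.000105) and A17.2 cells (1.09 ± 0.13, adjusted p = 0.000353), as did *Crem*, a factor of the cyclic AMP response (2.12 ± 0.24, adjusted p = 0.000285 and 2.04 ± 0.23, adjusted p = 0.000221). *Crem* was also higher with A17.2, unstimulated (0.99 ± 0.23, adjusted p = 0.0271) and with cytokines (0.91 ± 0.22, adjusted p = 0.0341), as was *Jdp2*, a JUN dimerization protein (0.63 ± 0.11, adjusted p = 0.00775 and 0.46 ± 0.11, adjusted p = 0.0315). Of 15 ERK effectors and SRF cofactors, all tested, and of 6 tested of 7 further ERK output genes, 0 were called in any comparison without the block.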

How the data were processed

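Poly(A) RNA of 12 libraries (Ion Total RNA-Seq Kit v2) was aligned by the authors to mm10, per the submitters' processing notes (aligner, counter, annotation and strand setting: not given in the sources used here). The authors deposited raw counts per gene symbol, used here as deposited, and further tables of their own fold changes and p-values, which were not used. Counts were tested in edgeR 4.0.16 (R 4.3.3, limma 3.58.1): TMM scaling, filterByExpr, 1 quasi-likelihood fit of all 12 libraries, contrasts between the 4 groups and their difference, and Benjamini-Hochberg adjustment over all 15649 genes tested of 43271 listed (10997 had no reads). A call is an adjusted p under 0.05, and SE were taken as the absolute log2 fold change over the root of F. CPM are scaled by TMM; those per kilobase use exon lengths of GENCODE M21, whose GRCm38 coordinates are printed. Fitted log2 fold changes use edgeR's default prior count. Deviations from the group means use log2 CPM with a prior count of 2, and differences within a replicate number use log2 (CPM + 0.5). Promoter windows and their letters are from RefSeq (GRCm38.p6).

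Libraries of the same number correlated in their deviations from the group means at 0.309 to 0.850 over 18 pairs of libraries, above the 0.1 set as threshold, and those of different number at -0.751 to 0.455 over 36 pairs. These ranges overlap. Unstimulated control library 2 correlated at 0.309 with unstimulated A17.2 library 2 and at 0.362 with unstimulated A17.2 library 3. Control cytokine library 2 correlated with the same A17.2 libraries at 0.337 and 0.435. With A17.2 cytokine libraries 2 and 3 the values were 0.409 and 0.338 for the unstimulated control library. They were 0.462 and 0.433 for the control cytokine library. The pairing comes from the replicate numbers in the labels, and a fit with the number as a block was run beside the main one. Calls made with the block alone rest on this pairing. The residual dispersion was 0.0795 without and 0.011 with the block. Alternatives were DESeq2 1.42.0, its size factors, total counts, other filters, only the groups compared, and omission of libraries. The fits were run on simulated counts with known fold changes, for the cytokine response of control cells alone. The simulation set a dispersion of 0.011 and a shift shared by libraries of 1 number. It thus took the pairing as given, cannot show whether the real libraries are paired, and did not cover the comparisons of the lines. Depth of 16592831 to 35861103 counts limits members at a few CPM or less.

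Values per library were printed for the 30 members with the lowest adjusted p among those called in either fit and for the member of each class with the highest mean CPM, and up to 4 genes of each pathway list were named by adjusted p. The members and lists were chosen with earlier results of these data known.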

Additional observations from a re-analysis of the deposited data

Results flagged for a closer look

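*Jund* was flagged because the cytokine response pointed up within every replicate number of the control cells and down within every one of the A17.2 cells. It came to a log2 fold change of 0.24 ± 0.17 (SE) in control and -0.25 ± 0.17 in A17.2 cells, with n = 3 libraries per group, and the difference of -0.49 ± 0.23 did not pass the edgeR test of the difference (adjusted p = 1.00 without and 0.197 with the replicate block). The libraries read 48.1, 37.2 and 43.04 CPM in unstimulated control, 60.1, 45.6 and 45.4 CPM in control with cytokines, 79.4, 57.3 and 62.3 CPM in unstimulated A17.2 and 58.9, 55.03 and 53.4 CPM in A17.2 cells with cytokines. Of the values compared in this way for the members, only this one met the condition. How many of all genes tested meet it was not counted, so the flag is a description only.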

How the results depend on the processing

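All 16 calls of members in edgeR without the block kept their direction under every alternative, all 16 were also made by DESeq2 and by each fit with the replicate block that left out a number, and 8 were kept without any 1 of the libraries compared. In the order control cytokine response, A17.2 cytokine response, A17.2 against control unstimulated and with cytokines, 5, 6, 3 and 2 members were called. With the replicate block 18, 16, 18 and 13 were. With the block and without the libraries numbered 1 the counts were 17, 18, 16 and 12, without those numbered 2 they were 13, 12, 13 and 9, and without those numbered 3 they were 16, 12, 13 and 11. DESeq2 called 9, 7, 5 and 4, where it called 2.49%, 3.1%, 5.21% and 5.85% of all genes with reads. Fitting only the groups compared left 1 call in each comparison of the lines. Leaving out 1 library, or 1 number in every group, gave 0 to 9, 0 to 8, 0 to 8 and 0 to 4 calls, and 0 for the difference of the responses under every such omission. For the fits with libraries left out, with or without the block, the shares of all genes called are not given here. Of the 49 calls made with the block alone, DESeq2 made 9, and 26 were made in all 3 block fits without a number. Calls made in 0 of these 3 fits were the responses of *Fos* in control and *Egr2* in A17.2 cells. The same held for *Nr4a1* with A17.2 unstimulated and *Spry4* with A17.2 and cytokines. Total-count scaling moved the median log2 fold change of all genes to -0.12 in the control response and -0.14 in the A17.2 response, with 22 and 25 members below 0 in place of 17 and 23. Depth limits what can be said of *Fos*, *Fosb*, *Egr2*, *Egr3*, *Btg2* and *Atf3*. The cause of these shifts was not tested.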

Other observations

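The RAS to ERK kinases, the JNK and p38 kinases and the further immediate early genes had mostly negative differences between the lines in their cytokine responses: 18 of 21, 12 of 14 and 19 of 24, with medians of -0.10, -0.13 and -0.22 on the log2 scale, beside 7596 of 15649 and 0.01 for all genes tested. Of the other lists, 10 of 15 ERK effectors and SRF cofactors (median -0.11), 7 of 12 AP-1 partners (-0.05) and 3 of 6 further ERK output genes (-0.0049) were below 0. Of the 6 genes of the fibroblast list 5 were above 0, with a median of 0.29. In edgeR 0 genes of these lists passed the test of the difference, and 1 of the further immediate early genes and 1 of the AP-1 partners had an unadjusted p under 0.05.

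Some genes that share exon sequence with a member on the other strand were well expressed. *Ccdc85b*, beside *Fosl1*, stood at 36.3 to 43.9 CPM in the group means, *Prdx2*, beside *Junb*, at 234 to 312 CPM, and *Junos*, beside *Jun*, at 3.08 to 5.14 CPM. The partner of *Jund*, *Gm11175*, stood at 0.0882 to 0.291 CPM and that of *Phlda1*, *Gm28592*, at 0.308 to 0.629 CPM.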
